A study of Zea mays with 48 samples.

Results

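The lower side of the gravity-stimulated maize pulvinus, the side that elongates fast, was compared at 15, 30 and 60 min after reorientation with the right side of pulvini from vertical plants. The members were chosen from the sample labels: lower side at these 3 times and right side of the vertical control, which gave 6 lower and 2 right arrays in each kind of RNA, or 16 of the 48 arrays. The labels name Zea mays strain B73 for all plants, grown for about 6 weeks in a greenhouse, and give a 90 degree reorientation for the stimulated plants and none for the vertical ones. The second pulvinus above the soil was cut into its sides, 6 pulvini were pooled per time point, and the frozen powder was divided for total RNA and for polysomal RNA. Each group has 2 arrays, repetition 1 and repetition 2. The series' design speaks of 2 growing seasons, and the repetition numbers are taken here to stand for them, which the labels do not state. The p-values measure the spread between the arrays of a group, each from 1 side of a pool. The 2 sides of a pool entered all tests as independent arrays. Their correlation within a pool was estimated at 0.57 in total and 0.38 in polysomal RNA. Each array reads the mixed tissue of one side of the pulvinus, and fewer cells of a type and less RNA per cell cannot be told apart in it.

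The pulvinus is a joint of the grass shoot whose lower side elongates when the shoot is laid down and so turns the shoot upright again. Elongation of a plant cell depends on wall loosening, in which expansins act, on the supply of new wall material and on water uptake through aquaporins. Auxin, gibberellin, calcium and inositol phospholipid signals are known for the gravity response of this organ. Polysomal RNA is the RNA bound to several ribosomes and serves as a measure of what is being translated.

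Values are log2 of the deposited signal plus 16, and every difference is lower side minus right control on this log2 scale, which understates changes of dim probe sets. A probe set is the array's unit of measurement, and levels of different probe sets are not compared. Whether the arrays of the groups overlap is given as a description of the same values that were tested. How many of all probe sets separate in this way was not counted. A probe set passed when its adjusted p from limma, fitted over all 10527 tested probe sets with the repetition as a covariate, lay under 0.05. The annotation lists 1 gene for 920 of the tested probe sets and none for 9607. The median signal of the 16 arrays lay between 175.8 and 211.4, with 16% to 22.4% of values below 16, and the number of arrays limits the precision. Across probe sets the 2 repetitions of a group correlated at r = 0.914 to 0.942, as a description of arrays that share 1 table.

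Averaged over 15, 30 and 60 min, the response of the lower side was mostly an increase. In total RNA 115 probe sets passed, 1.09% of those tested, of which 101 (0.959%) were higher and 14 (0.133%) lower than the right control. In polysomal RNA 244 passed, 2.32%, with 192 (1.82%) higher and 52 (0.494%) lower. The higher sets had a median rise of 1.15 in total and 1.07 in polysomal RNA, and 61 and 106 of them rose by at least 1 on the log2 scale. The lower sets had medians of -0.64 and -0.62, and 1 of them in total RNA and 0 in polysomal RNA fell by at least 1. All of these probe sets had the same sign in both repetitions, which is no separate support, since the same values made the calls. Without the repetition in the fit the counts were 0 and 52. The right control used to call the sets also stood apart from the left vertical side in them. In total and polysomal RNA, right minus left had medians of 0.29 and 0.20 in the lower sets. In the higher sets they were -0.09 and -0.125. Measured against the left side, the medians were -0.39 and -0.42 for the lower sets and 1.04 and 0.96 for the higher ones.

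The counts rest on 2 control arrays in each kind of RNA, and on a spread estimated from all 24 arrays of that RNA. Without the right control of repetition 1 the count was 4 in total and 53 in polysomal RNA, and without that of repetition 2 it was 3 and 27. In total RNA it was also 47 without the 15 min array of repetition 2, 37 without the 30 min array of repetition 1, 183 without the 30 min array of repetition 2, and 34 without the 60 min array of repetition 1. In polysomal RNA it was 122 without the 30 min and 150 without the 60 min array of repetition 1. All 12 named probe sets that passed in total RNA, and all 19 in polysomal RNA, missed the threshold when 1 or the other right control array was left out, although their direction stayed. When arrays of 1 plant pool shared a random block, the calls of LOC732777, MPK4 and gst30 in total RNA and of RR5, MPK4 and LOC542763 in polysomal RNA were lost as well. In a fit to the 8 arrays alone in 2 groups, lower and right, all 12 named calls in total RNA were lost. So were the named calls in polysomal RNA, except that of expA4. With the mean of the left and right vertical sides as the control, 410 and 549 probe sets passed. A polysomal array of the upper side at 5 min, repetition 1, stands apart from its group and enters only through the shared estimate of the spread. Without it 316 polysomal probe sets passed.

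The probe sets that passed in both kinds of RNA changed in the same direction. The lists shared 74 probe sets, 64.3% of the total and 30.3% of the polysomal list, and all 74 had the same sign in both. Both kinds of RNA came from the same powders, so this is not an independent repeat. The 192 probe sets that rose in polysomal RNA had a median change of 0.96 in total RNA, and the 52 that fell had one of -0.40. The difference between the polysomal and the total change, tested on the aliquots of the same powders, passed for 0 probe sets with limma (lowest adjusted p = 0.946), with 496 at an unadjusted p under 0.05. All arrays had nearly the same 2% trimmed mean signal, so a polysomal shift common to all transcripts could not show in this difference. The smallest p among named genes included mha1, a plasma membrane proton ATPase, at -0.93 ± 0.36 (SE), with -1.62 in repetition 1 and -0.24 in repetition 2. Also among them were sut1, a sucrose transporter, at -0.51 ± 0.20 and cks1, a partner of cyclin-dependent kinases, at 0.40 ± 0.15. None of these passed (adjusted p = 0.996, limma).

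**Figure D1:**
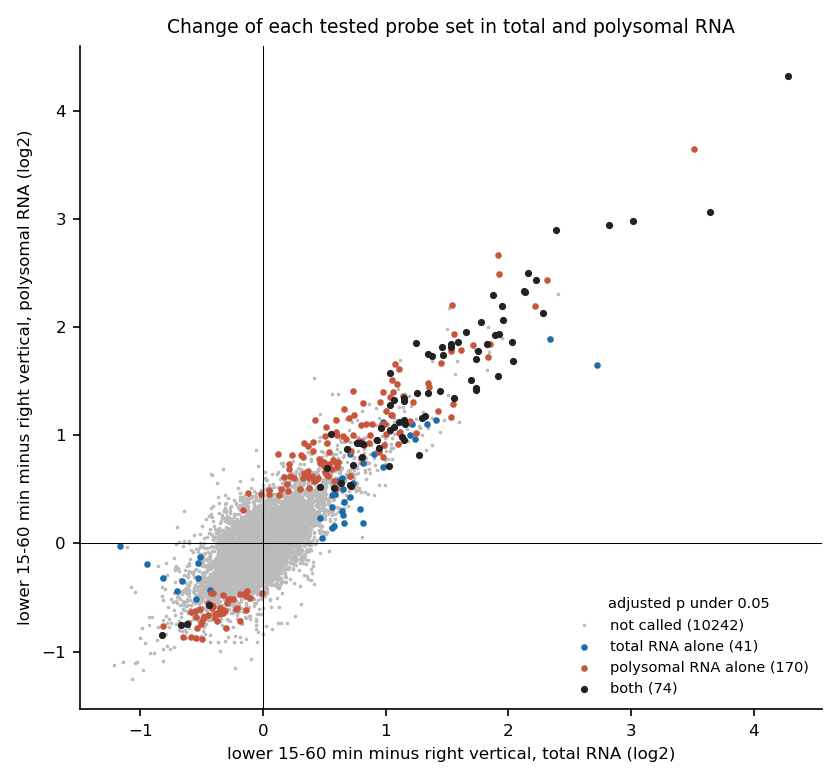
Change of each of the 10527 tested probe sets, lower side at 15 to 60 min minus right vertical control, in total RNA (x axis, log2) and polysomal RNA (y axis, log2). Black points passed in both kinds of RNA (74), blue in total RNA alone and red in polysomal RNA alone, and the black points lie where both changes have the same sign.

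The steepest rises came from probe sets without a listed gene. For Zm.1524.1.A1_at the right control arrays read 6.01 and 4.16 in total RNA, and the 6 lower arrays ran from 7.10 to 11.28 with a median of 9.83. In polysomal RNA the controls read 6.33 and 4.51 and the lower arrays 7.28 to 11.43, median 10.30. Every lower array lay above both controls, and the 60 min arrays were the lowest of the 6. The change was 4.28 ± 0.74 (SE, adjusted p = 0.0135, limma) in total RNA and 4.32 ± 0.73 (adjusted p = 0.00620, limma) in polysomal RNA. The control signals were dim, at 48.3 and 1.9 in total RNA, so the size depends on the added 16.

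Zm.12139.1.A1_at read 7.66 and 6.90 in the total RNA controls and 9.15 to 12.93, median 10.70, on the lower side. Its groups did not overlap in either RNA, and it rose by 3.64 ± 0.52 in total (adjusted p = 0.00884) and 3.06 ± 0.41 in polysomal RNA (adjusted p = 0.00104, limma). Zm.1424.1.A1_at passed in polysomal RNA alone, at 3.65 ± 0.81 (adjusted p = 0.0272, limma), from controls of 6.40 and 5.09 to lower arrays of 8.09 to 10.48. Its level on the lower side was already 10.35 in repetition 1 and 7.63 in repetition 2 at 2 min.

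Among the genes of the cell wall, expA4, an expansin that loosens walls, rose in both kinds of RNA. Its probe set Zm.13728.2.S1_at read 7.20 and 5.52 in the total RNA controls and 7.07 to 8.96, median 8.15, on the lower side. In polysomal RNA the controls read 7.21 and 5.70 and the lower arrays 7.54 to 9.25, median 8.57. Within each repetition every lower array lay above its control, and the groups did not overlap in polysomal RNA. In total RNA 1 lower array, 60 min of repetition 2, lay below the control of repetition 1. The change was 1.78 ± 0.37 (SE, adjusted p = 0.0375) in total and 2.05 ± 0.27 (4.13-fold, adjusted p = 0.00104, limma) in polysomal RNA. A second expA4 probe set, Zm.13728.2.S1_a_at, rose by 1.20 ± 0.25 in total RNA (adjusted p = 0.0375) and stood at 1.00 ± 0.26 in polysomal RNA (adjusted p = 0.0573, limma). The third, Zm.13728.1.S1_at, stood at 0.39 and 0.37 and did not pass, so the probe sets of this gene differ in size.

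Other expansins did not pass. Of 14 tested probe sets with an expansin name, from 11 genes, 11 were above 0 in total and 9 in polysomal RNA, with medians of 0.18 and 0.10 and a range from -0.56 to 1.78 in total RNA. Those of expB7 stood at 1.15 ± 0.86 and 1.36 ± 0.72, expa2 at 0.81 ± 0.73 and 1.23 ± 0.61, and EXPA5 at 1.03 ± 0.43 and 0.85 ± 0.39 in total and polysomal RNA. These 3 were named after their values were seen. expA3 read 12.28 and 12.39 in the total RNA controls and 11.55 to 12.04 on the lower side, below both controls on every array. Its difference of -0.56 ± 0.49 in total and -0.63 ± 0.21 in polysomal RNA did not pass (adjusted p = 0.669 and 0.137, limma).

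UGlcAE, a UDP-glucuronic acid epimerase that makes a precursor of pectin, is read by 2 probe sets with different time courses. Zm.5311.1.A1_at read 9.22 and 8.74 in the polysomal controls and 9.19 to 10.90, median 10.15, on the lower side. Within each repetition all lower arrays were above the control, and the 60 min array of repetition 2 lay just below the control of repetition 1. It rose by 1.1 ± 0.26 in polysomal RNA (adjusted p = 0.0357) and stood at 0.99 ± 0.25 in total RNA (adjusted p = 0.0745, limma). Zm.12322.1.A1_at stood at 0.83 and 0.68 over the 3 times and is described with the time course. In all, 2 of the 51 tested cell wall probe sets rose in total RNA and 2 in polysomal RNA, and 0 fell, against 1.09% and 2.32% of all probe sets called. Those called higher were 0.959% of all tested probe sets in total and 1.82% in polysomal RNA, and those called lower 0.133% and 0.494%. The counts of the other gene lists over the 3 times are to be read against the same shares. The list's median was 0.04 in total and 0.01 in polysomal RNA, beside -0.01 and -0.03 over all tested probe sets.

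**Figure D2:**
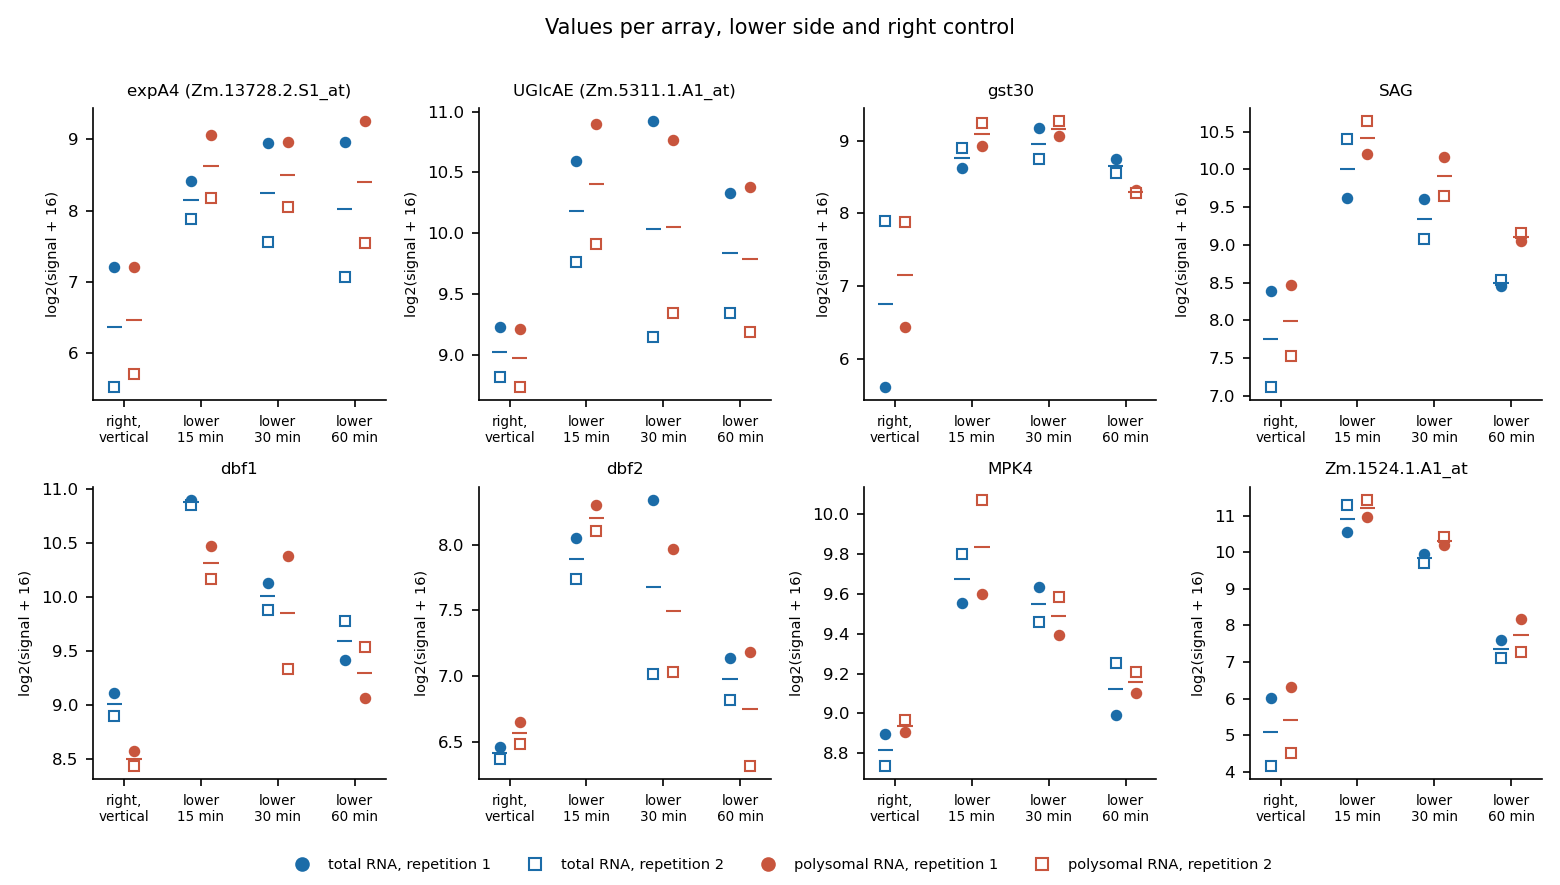
Level of 8 probe sets on each array (y axis, log2 of signal plus 16) in the right vertical control and on the lower side at 15, 30 and 60 min. Blue is total and red polysomal RNA, filled circles are repetition 1, open squares repetition 2 and bars the mean of the 2, and dbf1 and Zm.1524.1.A1_at are highest at 15 min while expA4 stays above the control of its own repetition to 60 min.

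Single genes of signalling and of the response to stress also passed. dbf1 encodes a factor that binds the drought-responsive element of promoters. It read 9.12 and 8.90 in the total RNA controls and 9.42 to 10.90, median 10.01, on the lower side, and 8.57 and 8.44 against 9.07 to 10.48 in polysomal RNA. The groups were separate in both. The rise was 1.15 ± 0.18 (SE, adjusted p = 0.0105) in total and 1.32 ± 0.28 (adjusted p = 0.0215, limma) in polysomal RNA. The related dbf2 read 6.65 and 6.48 in the polysomal controls and 6.32 to 8.30 on the lower side, with the 60 min array of repetition 2 below both controls. dbf2 rose by 0.92 ± 0.19 in polysomal RNA (adjusted p = 0.0215) and stood at 1.1 ± 0.30 in total RNA (adjusted p = 0.102, limma). The list of stress transcription factors had 1 of 19 probe sets higher in total and 2 of 19 in polysomal RNA, against 0.959% and 1.82% of all tested probe sets higher, with 0 lower and medians of 0.09 and 0.13.

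CDPK1, a calcium-dependent protein kinase, read 8.75 and 8.71 in the polysomal controls and 9.26 to 10.57, median 9.94, on the lower side. All 6 lower arrays were above both controls, and it rose by 1.22 ± 0.22 (2.33-fold, adjusted p = 0.00939, limma). In total RNA 5 of 6 arrays were above both controls, and the change of 1.00 ± 0.26 did not pass (adjusted p = 0.0866, limma). CaM1, a calmodulin, stood at 0.49 ± 0.16 and 0.41 ± 0.16, and PLD1, a phospholipase D, at 0.48 ± 0.14 and 0.26 ± 0.14 in total and polysomal RNA. Neither passed, and each read above both controls on all lower arrays. Of 24 probe sets for calcium and phospholipid signalling, 0 passed in total and 1 in polysomal RNA, against 0.959% and 1.82% of all tested probe sets higher. The medians were 0.05 and 0.11.

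MPK4, a mitogen-activated protein kinase, rose by a small amount in both kinds of RNA. Its total RNA controls read 8.89 and 8.74 and its lower arrays 8.99 to 9.80, median 9.51, without overlap. The change was 0.63 ± 0.14 in total (adjusted p = 0.0425) and 0.56 ± 0.14 in polysomal RNA (adjusted p = 0.0460, limma). In each RNA the call was lost in 7 of the 8 fits that left out 1 array, without the filter on low values and with the random block for plant pools. rop4 (LOC542758), a small GTPase, stood at -0.66 ± 0.16 in total RNA (adjusted p = 0.0535, limma) and -0.47 ± 0.16 in polysomal RNA. Of 41 probe sets for protein kinases and small GTPases, 1 rose in each RNA, against 0.959% and 1.82% of all tested probe sets higher, and the medians were -0.05 and -0.12.

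gst30, a glutathione transferase, was at 5.61 and 7.89 in the total RNA controls and at 8.55 to 9.18, median 8.75, on the lower side. In polysomal RNA the controls were at 6.44 and 7.88 and the lower arrays at 8.28 to 9.27. The controls of the 2 repetitions lay far apart, and all lower arrays exceeded both. The rise was 2.04 ± 0.42 in total (adjusted p = 0.0360) and 1.69 ± 0.31 in polysomal RNA (adjusted p = 0.00939, limma). Without the right control of repetition 1 the total RNA value was 1.12 (adjusted p = 0.471, limma), and the total RNA call was also lost with the random block for plant pools. Of 19 probe sets with a glutathione transferase name, 5 were above 0 in total and 11 in polysomal RNA, and gst30 alone passed in each. Of 41 probe sets for redox and detoxification 1 rose in each RNA, against 0.959% and 1.82% of all tested probe sets higher, with medians of -0.09 and -0.14.

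mtcpn60II, a mitochondrial chaperonin, rose by 0.56 ± 0.12 in total RNA (adjusted p = 0.0382) and stood at 0.14 ± 0.18 in polysomal RNA (adjusted p = 0.730, limma). Its total RNA controls read 7.83 and 8.57 and its lower arrays 8.40 to 9.16, with overlap between repetitions. The call was lost in 6 of the 8 fits that left out 1 array, without the filter and with quantile normalization. It was the 1 of 33 heat shock and chaperone probe sets that passed in total RNA, and 0 passed in polysomal RNA, against 0.959% and 1.82% of all tested probe sets higher, with medians of 0.09 and 0.04. HMG I/Y-2, a chromatin protein, rose by 0.62 ± 0.10 in polysomal RNA (adjusted p = 0.00564) and stood at 0.71 ± 0.19 in total RNA (adjusted p = 0.0866, limma). Polysomal levels were 10.67 and 9.82 in the controls and 10.43 to 11.41 on the lower side, above the control of the same repetition on every array. Among 66 histone and chromatin probe sets it was the only one to pass in polysomal RNA, and 0 passed in total RNA, against 0.959% and 1.82% of all tested probe sets higher. his1, a linker histone gene, lay below both controls on all 6 lower arrays in both RNAs, at -1.03 ± 0.30 and -1.09 ± 0.41, and did not pass.

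SAG read 8.39 and 7.12 in the total RNA controls and 8.46 to 10.40, median 9.34, on the lower side, and 8.46 and 7.52 against 9.05 to 10.63 in polysomal RNA. The groups did not overlap. SAG rose by 1.53 ± 0.31 in total (adjusted p = 0.0343) and 1.82 ± 0.24 in polysomal RNA (3.52-fold, adjusted p = 0.00104, limma). Without the right control of repetition 2 the total RNA value was 0.93 (adjusted p = 0.409, limma). LOC732777 rose by 0.93 ± 0.21 and 0.95 ± 0.17 (adjusted p = 0.0495 and 0.00941, limma), and its polysomal value was 0.56 without that array's polysomal counterpart. The total RNA call of LOC732777 was lost with the random block for plant pools. LOC542227 rose in polysomal RNA by 0.91 ± 0.22 (adjusted p = 0.0444, limma). The annotation gives no further name for the last 2.

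In the gibberellin and cytokinin list GA20 and RR5 passed in polysomal RNA. GA20, in the gibberellin list by its name, read 6.41 and 6.60 in the polysomal controls and 6.12 to 8.82, median 7.56, on the lower side. A single lower array, 15 min of repetition 2, lay below both controls. The rise was 1.19 ± 0.26 (adjusted p = 0.0268, limma), with 1.89 in repetition 1 and 0.48 in repetition 2, and it was 0.75 without the right control of repetition 1. Its call was lost in 5 of the 8 fits that left out 1 array and with quantile normalization. RR5, a response regulator of cytokinin signalling, rose by 0.61 ± 0.15 (adjusted p = 0.0495, limma), from 7.71 and 7.78 to 8.15 to 8.76 with no overlap. This call was lost in all 8 fits that left out 1 array, and also without the filter, with quantile normalization and with the random block for plant pools. In total RNA GA20 stood at 0.74 ± 0.32 and RR5 at 0.32 ± 0.24. Of 15 probe sets for gibberellin and cytokinin 0 and 2 passed, against 0.959% and 1.82% of all tested probe sets higher, with medians of -0.02 and -0.12.

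The auxin list had 6 tested probe sets, of which 0 passed. aux1, an auxin influx carrier by name, stood at 1.1 ± 0.50 and 1.43 ± 0.55, with controls of 8.50 and 6.62 in total RNA that differed more than the lower arrays, at 7.88 to 9.51. abp1, an auxin-binding protein, was below both controls on every lower array in total RNA, at -0.23 ± 0.14. Of 21 probe sets for jasmonate, ethylene and wounding 0 passed. hpl1, a hydroperoxide lyase, stood at 0.92 ± 0.24 in polysomal RNA (adjusted p = 0.0566, limma). dhn2, a dehydrin of the drought list, read 8.73 and 9.19 in the total RNA controls and 9.57 to 11.42 on the lower side. Its groups were separate in both RNAs, and 1.56 ± 0.52 and 1.56 ± 0.44 did not pass (adjusted p = 0.183 and 0.0819, limma).

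Among the pumps and transporters pht1, a phosphate transporter, rose by 0.96 ± 0.22 in polysomal RNA (adjusted p = 0.0355, limma), from controls of 8.56 and 6.79 to lower arrays of 8.05 to 9.27. The groups overlapped because the controls differed between repetitions. The value was 1.50 without the right control of repetition 1 and 0.41 without that of repetition 2. pht7, also a phosphate transporter, stood at 1.15 ± 0.30 and 1.22 ± 0.34 and did not pass over the 3 times. Of 28 probe sets for pumps and transporters 0 passed in total and 1 in polysomal RNA, against 0.959% and 1.82% of all tested probe sets higher.

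Of 27 aquaporin probe sets, from 23 genes, 5 were above 0 in each RNA and 0 passed. The median was -0.29 in total and -0.26 in polysomal RNA, beside -0.01 and -0.03 over all probe sets. tip2, an aquaporin of the vacuole membrane, was the highest at 1.50 ± 0.43 and 1.98 ± 0.59 (adjusted p = 0.117 and 0.0975, limma). PIP1-3, of the plasma membrane, read 11.36 and 11.33 in the total RNA controls and 10.37 to 11.28 on the lower side, with its lowest values at 15 and 30 min in repetition 1. Its difference was -0.49 ± 0.22. Ribosomal proteins and translation factors had 0 of 50 past the threshold in each RNA, and 38 were above 0 in polysomal RNA, with a median of 0.10 against 0.03 in total RNA. In 9 of the 18 gene lists at least 1 probe set passed in either RNA, and 0 list members fell in either. Of all tested probe sets 0.133% fell in total and 0.494% in polysomal RNA. At shares this small the 0 is not a result about the listed genes.

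**Figure D3:**
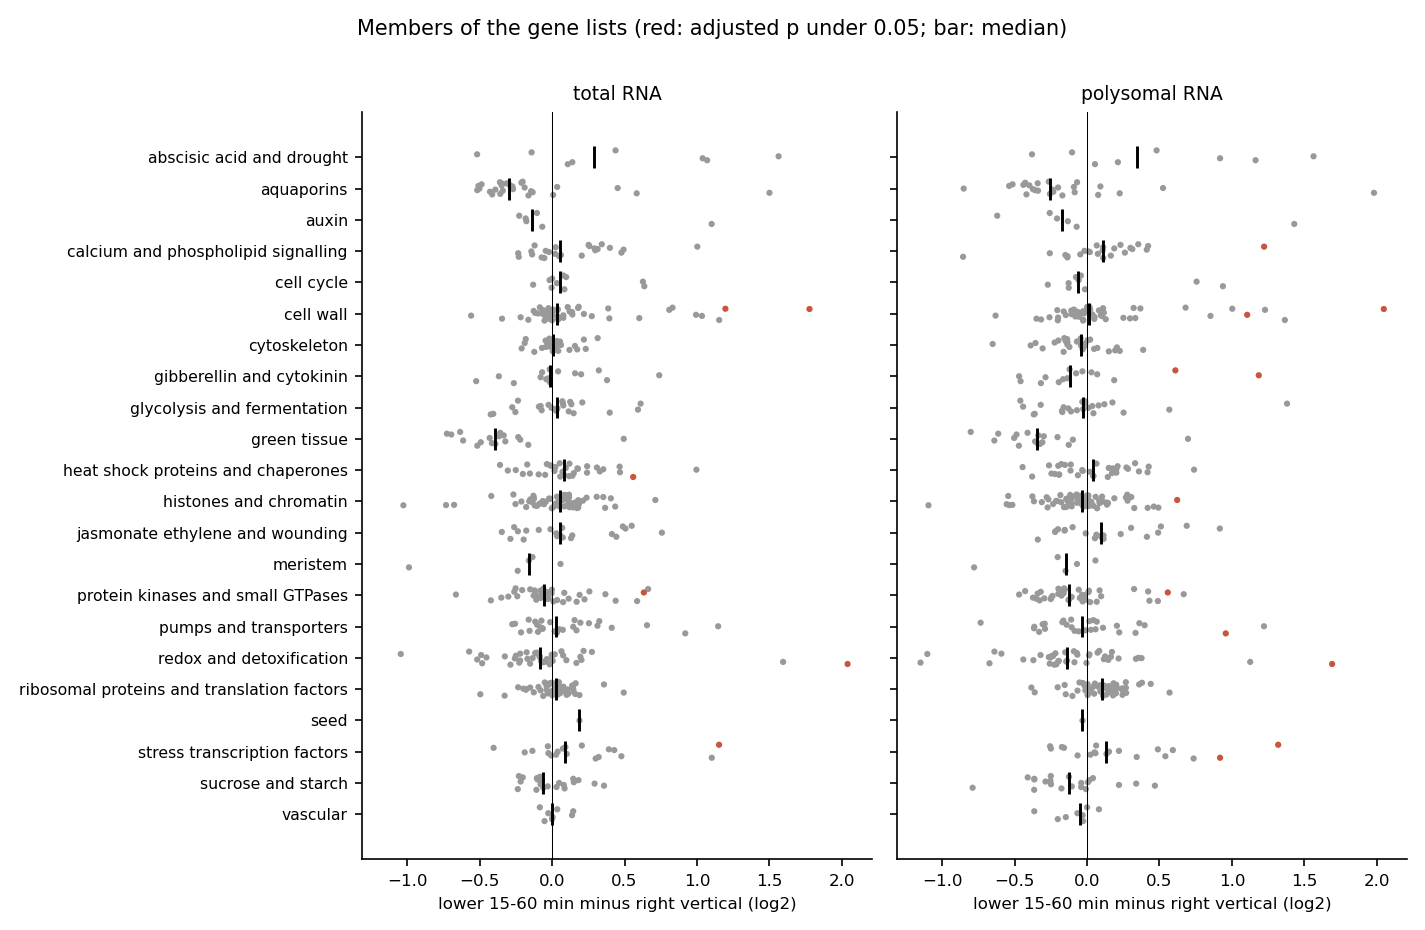
Change of each tested member of the 18 gene lists and the marker lists (x axis, log2, lower side at 15 to 60 min minus right control; 1 row per list) in total RNA (left) and polysomal RNA (right). Red points passed, and black bars are list medians. Members of the aquaporin, green tissue, auxin and meristem lists, among others, lie mostly below 0.

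Fewer named features fell. LOC542763 dropped by 0.61 ± 0.14 in polysomal RNA (adjusted p = 0.0272, limma), from 9.35 and 9.96 to 8.80 to 9.46, with 1 lower array above the control of repetition 1. Its call was lost with the random block for plant pools. Zm.7493.1.A1_at fell from 10.64 and 10.07 to 9.29 to 9.84, a change of -0.88 ± 0.19 (adjusted p = 0.0245). Zm.5372.1.S1_at fell from 7.94 and 7.80 to 6.69 to 7.27, a change of -0.87 ± 0.16 (adjusted p = 0.00995, limma). Both were without overlap in polysomal RNA and have no listed gene. In total RNA the most negative were ZmAffx.669.1.A1_at at -1.17 ± 0.20 and Zm.11882.1.A1_x_at at -0.94 ± 0.16 (adjusted p = 0.0135 for both, limma). These 2 were high in the right control itself. ZmAffx.669.1.A1_at read 10.88 and 10.52 on the right and 9.23 and 9.65 on the left vertical side, and 9.13 to 10.31 on the lower side. With the mean of both vertical sides as the control it no longer passed.

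Markers of other tissues were read on the same arrays. Of 23 green tissue probe sets 17 passed the filter on low values, 1 of these was above 0, 0 passed the test, and the medians were -0.39 in total and -0.34 in polysomal RNA. Their summed signal in total RNA was 27200.5 and 27914.5 in the controls. On the lower side of repetition 1 it was 13618.3 at 15 min, 10917.5 at 30 min and 18993.6 at 60 min, and in repetition 2 it was 28144.5, 26291.8 and 30402.5. The sums were thus low in repetition 1 and near the control in repetition 2, and polysomal RNA had the same order with 15546.2 to 21463.8 and 28076.9 to 32352.3. The left vertical side gave 25433.1 to 28947.7 and the upper side at 15 to 60 min 11398.7 to 29225.4 in total RNA. Their part in the medians of the aquaporin and other lists was not tested.

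The 8 vascular markers, of lignin, wall cellulose and phloem, all passed the filter. In total RNA their summed signals on the lower side were 19073.1 to 20187.3 in repetition 1, below its control of 22245.0. In repetition 2 they were 28248.0 to 29204.1, above its control of 24766.4. The polysomal sums were 19730.8 to 24155.6 against 24428.0 in repetition 1 and 28960.0 to 34369.4 against 30206.3 in repetition 2. The 5 meristem markers also passed the filter. In total RNA they gave 3332.7 to 3694.8 on the lower side against 4823.2 in the control of repetition 1. In repetition 2 they gave 3245.5 to 3340.5 against 3305.7. rs2 among them stood at -0.99 ± 0.33 and -0.78 ± 0.33 and did not pass. Pollen markers gave 0 of 8 past the filter and a summed signal of at most 122.8, and seed markers gave 1 of 27, a probe set of gz27.

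**Figure D4:**
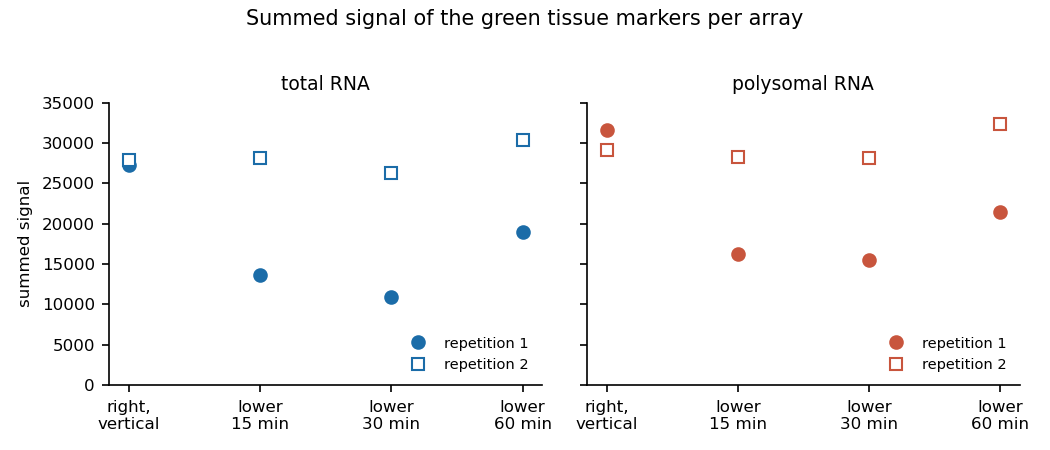
Summed signal of the 23 green tissue probe sets (y axis, linear scale from 0) on each of the 16 arrays, in total RNA (left) and polysomal RNA (right). Filled circles are repetition 1 and open squares repetition 2, and the circles are low on the lower side and not in the right control.

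The 3 times differed in the number of probe sets that passed, and they share the right control arrays, for which the labels give no time. At 15 min 290 passed in total RNA (2.75%), 215 higher (2.04%) and 75 lower (0.712%), and in polysomal RNA 313 (2.97%), 245 higher (2.33%) and 68 lower (0.646%). At 30 min the count was 30 (0.285%) in total RNA, with 27 higher (0.256%) and 3 lower (0.0285%). In polysomal RNA it was 99 (0.94%), with 90 higher (0.855%) and 9 lower (0.0855%). At 60 min 0 passed in total RNA with limma (lowest adjusted p = 0.0548, 816 at an unadjusted p under 0.05) and 9 (0.0855%) in polysomal RNA, 7 higher (0.0665%) and 2 lower (0.019%). Of the 101 probe sets higher over the 3 times in total RNA, 70 were farthest from the control at 15 min, 21 at 30 min and 10 at 60 min, and of the 192 in polysomal RNA 131, 40 and 21. Their medians at 15, 30 and 60 min were 1.51, 1.06 and 0.64 in total and 1.47, 1.08 and 0.64 in polysomal RNA. At 2 min the medians of these sets were 0.36 and 0.31, and at 5 min 0.27 and 0.31.

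Leaving out arrays moved these counts. At 15 min in total RNA the count was 152 and 50 without the lower array of repetition 1 and 2, and 80 and 96 without the right control of repetition 1 and 2. In polysomal RNA it was 106 without the lower array of repetition 2 and 152 and 167 without either control. At 30 min in total RNA it was 0 and 83 without the lower arrays and 2 and 0 without the controls, and in polysomal RNA 6, 35, 19 and 19 in that order. At 60 min in polysomal RNA it was 1, 3, 2 and 1, and in total RNA 4 without the lower array of repetition 2. Without the repetition in the fit, total RNA gave 62 probe sets at 15 min and 0 at each later time, and polysomal RNA gave 129, 20 and 0 in order of time. Without the polysomal array that stands apart, 33 passed at 60 min.

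At 15 min dbf1 stood at 10.90 and 10.86 in total RNA, against 9.12 and 8.90 in the control. It rose by 1.87 ± 0.22 (3.65-fold, adjusted p = 0.000508, limma), and this call held with any 1 of the 4 arrays left out. SAG rose by 2.25 ± 0.38 in total and 2.42 ± 0.30 in polysomal RNA (adjusted p = 0.00435 and 0.000218, limma). Its polysomal call, and that of expA4 at 2.16 ± 0.33 (adjusted p = 0.00121, limma), also held with any 1 of the 4 arrays left out. For the other named genes at this time, 1 or more of the 4 arrays decided the call, and those of expA4 and LOC542694 in total RNA and pht7 in polysomal RNA were also lost with the random block for plant pools.

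tip2 stood at 8.29 and 9.56 at 15 min in total RNA against 6.53 and 6.94 in the control, a rise of 2.19 ± 0.52 (adjusted p = 0.0369, limma). It was the 1 aquaporin of 27 that passed at 15 min, where 2.75% of all probe sets passed and 2.04% were higher, and the median of the list was -0.43 there. pht7 rose by 1.67 ± 0.42 in polysomal RNA (adjusted p = 0.0430), and the UGlcAE probe set Zm.12322.1.A1_at by 1.88 ± 0.36 in total RNA (adjusted p = 0.0115, limma). LOC542694 and LOC542458 fell at 15 min in total RNA, by 0.76 ± 0.18 and 0.59 ± 0.13 (adjusted p = 0.0349 and 0.0269, limma). At 30 min rcalm, a calmodulin by name, was the 1 named gene to rise in total RNA. It read 12.55 and 12.68 against 12.06 and 11.96, a change of 0.61 ± 0.11 (adjusted p = 0.0429, limma). This call was lost with any 1 of the 4 arrays left out, without the filter and with quantile normalization.

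In polysomal RNA at 30 min CDPK1 rose by 1.37 ± 0.27, GA20 by 1.60 ± 0.32, gst30 by 2.01 ± 0.38, SAG by 1.91 ± 0.30 and expA4 by 2.04 ± 0.33 (adjusted p = 0.0285, 0.0290, 0.0196, 0.00526 and 0.00579, limma). Each of these calls was lost without the lower array of repetition 1 and without 1 or both of the right controls. At 60 min expA4 still stood at 9.25 and 7.54 in polysomal RNA, a rise of 1.94 ± 0.33 (adjusted p = 0.0386, limma). FDX6, a ferredoxin, rose by 1.09 ± 0.13 (adjusted p = 0.00252) and HMG I/Y-2 by 0.75 ± 0.13 (adjusted p = 0.0386, limma). The calls of expA4 and HMG I/Y-2 were lost with any 1 of the 4 arrays left out and without the filter. That of FDX6 was lost without the lower array of repetition 1 and without the control of repetition 2. In total RNA at 60 min FDX6 stood at 0.86 ± 0.15, aos1 at 0.98 ± 0.22 and AR1 at 0.97 ± 0.25, none past the threshold (adjusted p = 0.0873, 0.157 and 0.232, limma).

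The change between 15 and 60 min was tested on the lower side itself, without the control arrays. The labels give no time for the vertical plants. Changes with time that are unrelated to the reorientation therefore cannot be told apart from the response. In total RNA 135 probe sets differed (1.28%), 47 higher (0.446%) and 88 lower (0.836%) at 60 min. In polysomal RNA 174 differed (1.65%), 49 higher (0.465%) and 125 lower (1.19%). The 2 lists, again from the same powders, shared 97 probe sets, 71.9% of the total and 55.7% of the polysomal list, all in the same direction. Of the 101 probe sets higher over the 3 times in total RNA, 33 fell from 15 to 60 min and 0 rose, and of the 192 in polysomal RNA 69 fell and 2 rose. In total RNA the count was 78 and 39 without the 15 min arrays of repetition 1 and 2, and 31 and 67 without the 60 min arrays. In polysomal RNA it was 36 without the 15 min array of repetition 2 and 80 and 88 without the 60 min arrays. Without the repetition in the fit it was 23 and 67.

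Some genes fell between 15 and 60 min. The UGlcAE probe set Zm.12322.1.A1_at read 10.74 and 9.88 at 15 min in polysomal RNA and 9.93 and 8.30 at 30 min. By 60 min it read 8.46 and 7.09, and both arrays lay below the control of their own repetition, at 9.08 and 7.69. It fell by 2.54 ± 0.42 from 15 to 60 min in polysomal RNA and by 1.93 ± 0.36 in total RNA (adjusted p = 0.00412 and 0.0138, limma). CDPK1 fell by 1.53 ± 0.32 in total RNA, from 10.31 and 10.87 to 9.30 and 8.82 (adjusted p = 0.0268, limma). dbf1 fell by 1.28 ± 0.22 in total RNA and dbf2 by 1.46 ± 0.24 in polysomal RNA (adjusted p = 0.00702 and 0.00369, limma). SAG fell by 1.31 ± 0.30 in polysomal RNA (adjusted p = 0.0323). DBP1a, a further protein of the group that binds the drought-responsive element, fell by 0.92 ± 0.16 there (adjusted p = 0.00560, limma).

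Other genes rose between 15 and 60 min. FDX6 went from 9.96 and 9.66 at 15 min to 11.51 and 11.10 at 60 min in polysomal RNA, a rise of 1.49 ± 0.13 (adjusted p = 2.65e-05, limma), and rose by 1.17 ± 0.15 in total RNA (adjusted p = 0.00159, limma). Both calls held with any 1 of the 4 arrays left out, whereas those of the other named genes that fell or rose between these times did not. aos1 and aoc1 encode allene oxide synthase and cyclase, of jasmonate synthesis. aos1 rose by 1.25 ± 0.22 in total and 1.12 ± 0.25 in polysomal RNA (adjusted p = 0.00923 and 0.0319), and aoc1 by 0.79 ± 0.18 in total RNA (adjusted p = 0.0431, limma). They were 2 of 21 probe sets of the jasmonate, ethylene and wounding list to rise in total RNA, against 0.446% of all tested probe sets. There the list's median was 0.19 beside 0.02 over all probe sets.

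GA20 rose by 1.48 ± 0.32 in polysomal RNA, from 7.36 and 6.12 to 8.71 and 7.73 (adjusted p = 0.0266, limma). LOC542286 rose by 1.05 ± 0.20 in total RNA and bsd2, required for Rubisco accumulation in maize, by 0.86 ± 0.17 (adjusted p = 0.0150 and 0.0166, limma). The total RNA calls of aoc1 and LOC542286 were lost with the random block for plant pools. The green tissue sums given above also rose between 15 and 60 min in both repetitions and both RNAs, and their part in the rise of bsd2 and FDX6 was not tested.

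**Figure D5:**
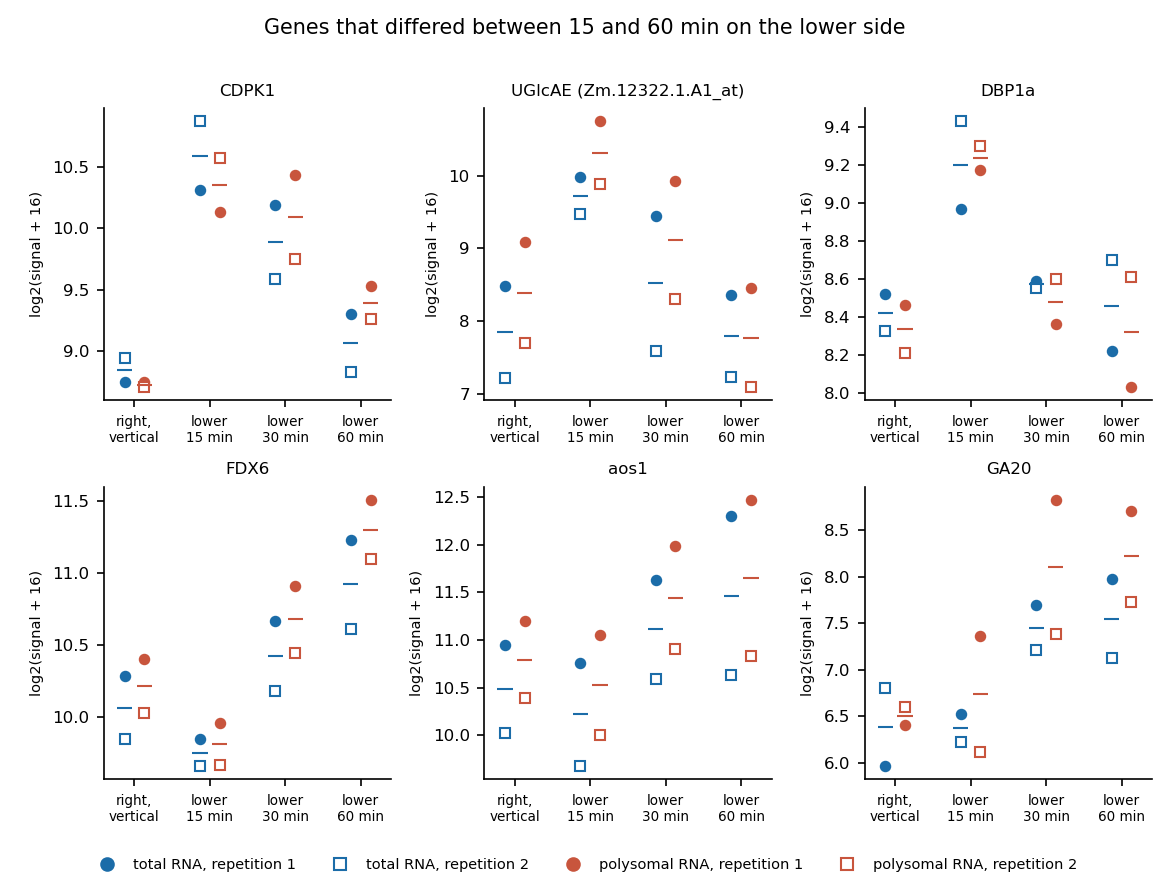
Level of 6 probe sets that differed between 15 and 60 min on the lower side in at least 1 kind of RNA (y axis, log2 of signal plus 16), with symbols for total RNA (blue), polysomal RNA (red), repetition 1 (filled) and repetition 2 (open) and bars for the mean of the 2. CDPK1, UGlcAE and DBP1a come down after 15 min, and FDX6, aos1 and GA20 go up.

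The control for the upper side is the left vertical side, and the difference of the lower and upper responses was tested in the same fits. It passed for 0 probe sets in total and 0 in polysomal RNA with limma, with 153 and 126 at an unadjusted p under 0.05. These fits took the 2 sides of a plant pool as independent arrays, so their standard errors ignore the pairing. The correlation within a pool was estimated at 0.57 in total and 0.38 in polysomal RNA. The 101 probe sets that rose on the lower side in total RNA had a median of 1.14 on the upper side, and all 101 were above 0 there. The 192 of polysomal RNA had a median of 0.99, and 191 were above 0. Of the 14 probe sets that fell in total RNA, 13 were below 0 on the upper side, with a median of -0.36. All 52 that fell in polysomal RNA were below 0 there, with a median of -0.44. The smallest p among named genes in total RNA included MPK4, at -0.57 ± 0.19, and fad7, a fatty acid desaturase, at -0.80 ± 0.27, each lower side response minus upper side response. In polysomal RNA they included GA20, at 1.15 ± 0.37, with 1.91 in repetition 1 and 0.39 in repetition 2. None passed (adjusted p = 1.00, limma). The right and left vertical sides differed in 0 probe sets in either RNA, with 131 and 133 at an unadjusted p under 0.05.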

How the data were processed

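The authors made the deposited values, linear signal intensity per probe set, with GCOS, per the submitters' processing notes. Its version, scaling and detection calls are not given in the sources used here. The 2% trimmed mean lay between 495.8 and 499.1 on all 48 arrays, so values were used as deposited. From these, log2(signal + 16) was computed, and probe sets under the 40th percentile of the mean were left out (10527 of 17545 kept). limma 3.58.1 (R 4.3.3, lmFit, eBayes with a trend) was fitted to the 24 arrays of each RNA, with 12 groups and the repetition, and to the polysomal minus total differences of the same powders, with Benjamini-Hochberg adjustment over all tested probe sets. The fit was tested on simulated data with independent noise on each array. That simulation cannot show how arrays that share a plant pool affect the calls.

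The repetition was kept in the fit because the series' design speaks of 2 growing seasons. That the repetition numbers in the labels stand for these seasons is an assumption. Departures from the group mean correlated at r = 0.576 to 0.712 between the 4 groups used in total RNA and at 0.556 to 0.728 in polysomal RNA.

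Gene names come from the platform's annotation of 1452 probe sets with 1 gene, matched by Entrez ID, 1377 of them found in RefSeq. The samples compared, the 18 gene lists and the 5 marker lists were chosen with earlier results of these data known. Named genes are the 15 highest and 15 lowest past the threshold with 1 gene and the same sign in both repetitions (5 and 5 for the other comparisons, or the 6 smallest p where none passed), up to 4 members of each list by smallest p, and 2 highest and 2 lowest probe sets without a gene. In each comparison a gene was ranked by the brightest of its probe sets that met these criteria, and its other probe sets are given where they differ. Alternatives changed the pseudocount, filter, normalization, repetition, plant pool, arrays and control.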

Additional observations from a re-analysis of the deposited data

Results flagged for a closer look

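The difference between 15 and 60 min on the lower side was tested directly, and it passed for 135 probe sets in total RNA and 174 in polysomal RNA. In total RNA the named genes that differed between these times were UGlcAE at -1.93, CDPK1 at -1.53, dbf1 at -1.28, aos1 at 1.25, FDX6 at 1.17, LOC542286 at 1.05, bsd2 at 0.86 and aoc1 at 0.79 (log2, 60 min minus 15 min). In polysomal RNA they were UGlcAE at -2.54, dbf2 at -1.46, SAG at -1.31, DBP1a at -0.92, FDX6 at 1.49, GA20 at 1.48 and aos1 at 1.12. UGlcAE is read here by Zm.12322.1.A1_at. Its other probe set, Zm.5311.1.A1_at, stood at 10.38 and 9.19 in polysomal RNA at 60 min, against 9.22 and 8.74 in the control, while Zm.12322.1.A1_at stood at 8.46 and 7.09 against 9.08 and 7.69. Among the named probe sets that passed over the 3 times, 0 had an array far from the other 5 of the lower side by Dixon's test. These 6 arrays span 3 times and 2 repetitions. Differences between those widen the range, so the test could hardly flag a single array.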

How the results depend on the processing

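Of the values of named genes under other settings, 2996 stayed on their side of the threshold, 358 missed a threshold they had passed, and 43 passed one they had missed. Of the 67 values past the threshold in the report 0 turned in sign, and values that had missed it could turn. Counts given here were more than 1.5 times above or below those of the report. For the mean of 15 to 60 min in total RNA (115) they were 58 with no filter, 0 with no replicate block, 410 with the mean of the left and right vertical sides as the control, and 36 and 4 from fits to the 8 arrays alone in 4 groups and in 2. In polysomal RNA (244) they were 52 with no replicate block, 549 with both vertical sides, and 82 and 18 from the 8 arrays. At 15 min they were 62 and 129 with no replicate block and 458 and 499 with both vertical sides, in total and polysomal RNA. At 30 min in total RNA (30) they were 17 with no filter, 0 with no replicate block, 12 when arrays of 1 plant pool shared a random block, 121 with both vertical sides, and in polysomal RNA (99) 20 with no replicate block and 171 with both sides. At 60 min in total RNA (0) they were 3 with no filter and 24 with both sides. In polysomal RNA (9) they were 5 with no filter, 14 with quantile normalization, 0 with no replicate block, 45 with both sides and 33 without the polysomal array of the upper side at 5 min, repetition 1. From 15 to 60 min they were 23 and 67 with no replicate block. For right minus left in total RNA that pool block gave 2.

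Leaving out 1 array at a time gave 3 to 183 in total and 27 to 224 in polysomal RNA over the 3 times, 50 to 152 and 106 to 236 at 15 min, 0 to 83 and 6 to 35 at 30 min, 0 to 4 and 1 to 3 at 60 min, 31 to 78 and 36 to 129 from 15 to 60 min, 0 to 1 in each RNA for right minus left and for the difference between sides, and 0 to 0 for the polysomal minus total change. A lone array of a group was assumed to vary like the other groups. The cause of these shifts was not tested, except that fits with fewer arrays have fewer residual degrees of freedom. With 2 control arrays a change that missed the threshold is not shown to be absent, and for dim probe sets the added 16 limits the fold.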
